A study of Epimedium pubescens with 12 samples.

Results

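Among the miRNAs counted in *Epimedium pubescens* leaves, 8 known miRNAs had a family number above that of miR172, once the phosphate starvation miRNA aqc-miR399 was set aside. They were aqc-miR319, aqc-miR396a, aqc-miR396b, aqc-miR398a, aqc-miR398b, aqc-miR395b, aqc-miR477e and aqc-miR535. They were chosen by name, as the table rows with the prefix aqc (the miRBase code of columbine, *Aquilegia*) and such a number. This rule, which leaves out aqc-miR399, was set with earlier results of these data known. The table held 220 miRNAs, of which 22 were known and 198 were predicted from hairpins. Of the 8 members, 7 had enough counts to be tested, among 137 miRNAs tested in all, and aqc-miR535 had not.

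*E. pubescens* is a perennial medicinal herb of the barberry family, and its leaves were sampled to follow miRNAs under phosphorus deficiency. Seedlings about 1 year old, collected from cultivation and moved to sand, were watered with nutrient solution without phosphate (-P, 0 mmol/L) or with phosphate (+P, 1 mmol/L). Leaves were taken at 90d, when damage had appeared under -P, and at 30d, before it was visible. The groups were 90d -P, 90d +P, 30d -P and 30d +P, with 3 libraries each (replicates A, B and C), 12 in all. All groups shared the light, the temperature and an acclimation in dilute nutrient solution. The plants of a group were of 1 species with no transgene or mutation named, and each replicate of a treatment held several seedlings. The table held only miRNAs, so the leaf label was not checked against marker genes.

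Plant miRNAs are short RNAs cut from hairpin precursors that guide cleavage or silencing of messenger RNAs with a matching site. In model plants, miR319 restrains TCP transcription factors and miR396 restrains growth-regulating factors (GRFs), and both families shape leaf cell division and leaf form. miR398 accumulates when copper is short and represses Cu/Zn superoxide dismutases, which clear superoxide, while miR395 accumulates when sulfate is short and represses ATP sulfurylases and a sulfate transporter. miR535 is close in sequence to miR156 and, in rice, acts on SPL transcription factors.

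Levels are given as TPM, here the count of a miRNA after its library was scaled to 1000000 miRNA counts in all, with no term for length, since 1 read is 1 whole small RNA. Library totals ran between 380316 and 1466897 counts. The most abundant miRNA, aqc-miR166e, took 47.7% to 73.1% of counts in 90d +P, against 35.4% to 46.7% in 30d +P, and the TPM of every other miRNA depends on that share. TMM scaling, which sets libraries level on the bulk of their miRNAs, was used in the tests. On the first principal component of TMM-scaled log2 CPM (30.1% of the variance), the 30d replicates A and B lay between -14.1 and -9.63 and the 90d libraries between 2.17 and 12.3. The 30d replicates C lay at 3.30 (-P) and 0.155 (+P), closer to the 90d libraries than to their own groups. Results that rest on these libraries are given below with and without them.

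The 8 members together took 4.52% ± 0.79 of counts in 90d -P, 2.74% ± 1.30 in 90d +P, 5.47% ± 0.99 in 30d -P and 5.28% ± 0.97 in 30d +P (SD, n = 3 each). Of the members' counts, 3 miRNAs (aqc-miR396b, aqc-miR398b and aqc-miR396a) held 95.8% to 99.4% in each library. By mean TPM over the 12 libraries, aqc-miR396b ranked 7th in the table (30288 TPM), aqc-miR398b 10th (8587 TPM) and aqc-miR396a 12th (5411 TPM). Lower down came aqc-miR319 at rank 39 (439 TPM), aqc-miR398a at 49 (230 TPM), aqc-miR395b at 78 (52.3 TPM) and aqc-miR477e at 88 (38.4 TPM). The growth-regulating pair miR396 and the b form of miR398 made up nearly all counts of the members. The leaves were measured in bulk, so a change in the share of cells that hold a miRNA and a change in its amount per cell cannot be told apart.

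Not every step in this order held within libraries. aqc-miR396b lay above aqc-miR398b in 10 of 12 libraries, and aqc-miR396a above aqc-miR319 in 12 of 12. aqc-miR398b lay above aqc-miR396a in only 3 of 12, since its mean was carried by a few libraries. aqc-miR319 exceeded aqc-miR398a in 8 of 12 libraries, aqc-miR398a exceeded aqc-miR395b in 8 of 12, and aqc-miR395b exceeded aqc-miR477e in 7 of 12, so neighbours in the lower part of the order were not separated.

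**Figure D1:**
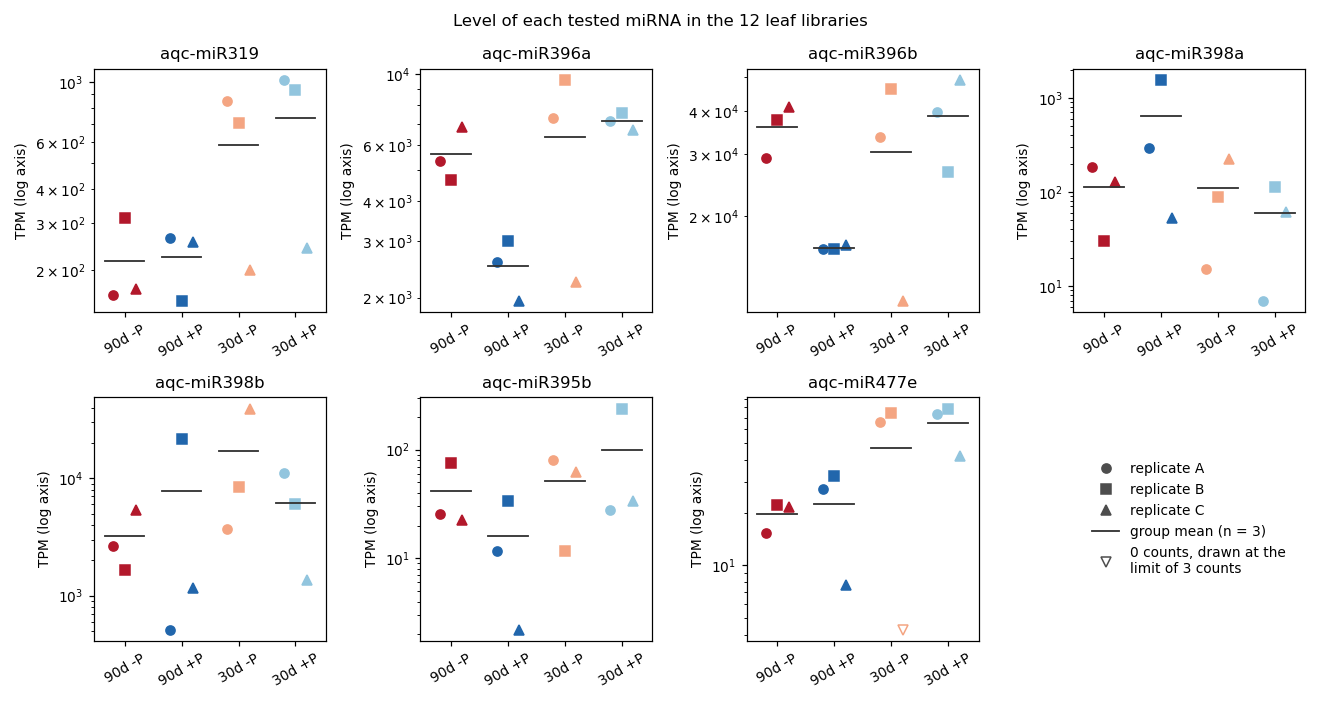
TPM (log axis) of the 7 tested miRNAs in each library of the 4 groups, with circles for replicate A, squares for B and triangles for C. Bars are group means (n = 3) and the open triangle is a library with 0 counts drawn at the limit of 3 counts. aqc-miR396a and aqc-miR396b show 90d -P above 90d +P without overlap, while aqc-miR398b is set by 30d -P replicate C (39337 TPM) and 90d +P replicate B (21580 TPM).

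No tested member passed an adjusted p of 0.05 in any comparison with edgeR's quasi-likelihood test by its older method, where the p was adjusted by Benjamini-Hochberg over the 137 miRNAs. For 90d -P against 90d +P this was 0 of 7 members, beside 2.19% of all miRNAs tested, and for phosphorus averaged over both times 0 of 7 beside 4.38%. For phosphorus at 30d, for time under each supply and for their average, and for the interaction of phosphorus and time, 0 of 7 members and 0% of all miRNAs passed. With the newer edgeR method, 1 member passed (aqc-miR398a in 90d +P against 30d +P), where 19 of 137 miRNAs passed. Few miRNAs passed over the whole table, where the median spread between replicates of a group (biological coefficient of variation) was 82.3%.

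An unadjusted p under 0.05 with a fold change of at least 2 on the linear scale (1 on the log2 scale), the thresholds that the study used with DESeq2, was applied here to the edgeR values and was met by 1 member in 1 comparison. This was aqc-miR398a, higher in 90d +P against 30d +P, where 26.3% of all miRNAs met the rule and 13.1% met it upward. With edgeR, no member met it for 30d -P against 30d +P (3.65% of all), 90d -P against 90d +P (8.03%) or 90d -P against 30d -P (8.03%). Nor did any member meet it for the interaction (5.11%), phosphorus averaged (9.49%) or time averaged (29.9%). Apart from aqc-miR398a, no member had an unadjusted p under 0.05 in these edgeR tests. With DESeq2 on the 6 libraries of a comparison, the thresholds were met by aqc-miR398a in 90d +P against 30d +P (higher) and in 90d -P against 90d +P (lower), and by aqc-miR398b in 90d -P against 30d -P (lower). In that fit of 90d -P against 90d +P, 23 of all miRNAs met the thresholds. For the other comparisons the count over all miRNAs in that fit is not given here. Across the alternative settings, apart from leaving out 1 library, this count ranged from 28 to 54 for 90d +P against 30d +P. For 90d -P against 30d -P it ranged from 9 to 27. For phosphorus at 30d no member met the thresholds with DESeq2 either.

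With DESeq2 on 12 libraries, 1 member (aqc-miR398a) passed an adjusted p of 0.05 for 90d +P against 30d +P, where 31 of 137 miRNAs passed. For time averaged 1 member passed (aqc-miR319), where 36 of 137 miRNAs passed. No member passed in the other 5 comparisons. With limma on log2(TPM + 1) or log2(TPM + 10), no member passed in any comparison.

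**Figure D2:**
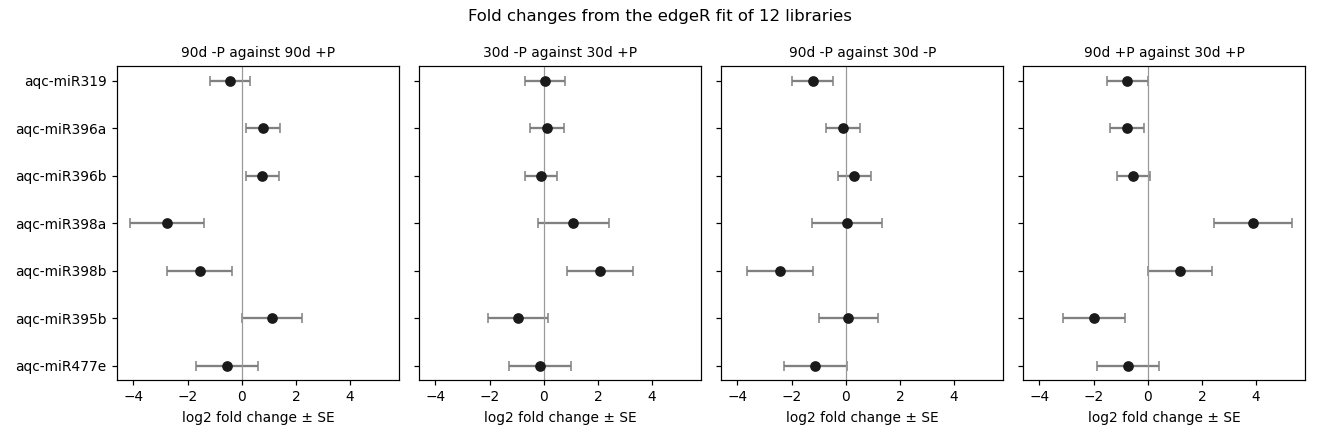
log2 fold change with its SE (bars) for the 7 tested miRNAs in the 4 comparisons of pairs of groups, from the edgeR fit of 12 libraries. The position furthest from 0 is aqc-miR398a in 90d +P against 30d +P (3.90), and the SE is smallest for the miR396 pair and widest for aqc-miR398a.

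The miR396 pair, which acts on GRFs in other plants, was the most even of the members and separated the 90d groups. aqc-miR396b had 29265, 37794 and 40924 TPM in 90d -P, against 16104, 16039 and 16468 TPM in 90d +P libraries. aqc-miR396a had 5359, 4676 and 6827 TPM in 90d -P, against 2581, 3017 and 1956 TPM in 90d +P libraries. All 3 deficient libraries lay above all 3 supplied ones for both miRNAs, on TPM and after TMM scaling. The mean TPM was 2.22-fold higher under -P for aqc-miR396b and 2.23-fold higher for aqc-miR396a.

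Such a separation was common at 90d. TPM ranges did not overlap, with -P higher, for 2 of 7 members and 16.1% of all miRNAs tested, and on the TMM scale for the same 2 members and 13.1%. The fitted log2 fold change was 0.75 (SE 0.60) for aqc-miR396b and 0.77 (SE 0.63) for aqc-miR396a, each with an edgeR adjusted p of 0.658. The change thus stayed within the spread that the model of all 12 libraries estimated. With DESeq2 on the 6 libraries of 90d alone, it was 0.90 for aqc-miR396b and 0.93 for aqc-miR396a. The DESeq2 unadjusted p was 0.024 and 0.0066. The DESeq2 adjusted p was 0.142 and 0.0642, the lowest of the 25 alternative settings for each. Library totals alone, without TMM factors, gave 1.15 for aqc-miR396b and 1.16 for aqc-miR396a in edgeR. The unadjusted p was 0.029 and 0.046, and the adjusted p was 0.469 each. Library totals alone moved the median of all miRNAs by 0.42 in this comparison, from -0.44 with TMM factors to -0.024.

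At 30d the pair did not separate by phosphorus. aqc-miR396b had 33572, 46213 and 11400 TPM in 30d -P, against 39761, 26717 and 49204 TPM in 30d +P libraries. aqc-miR396a had 7275, 9615 and 2234 TPM in 30d -P, against 7137, 7546 and 6707 TPM in 30d +P libraries. Replicate C of 30d -P was the lowest of the 12 libraries for aqc-miR396b and the second lowest for aqc-miR396a, and the ranges overlapped. The fitted direction at 30d changed in 11 of 25 alternative settings for aqc-miR396a and in 7 of 25 for aqc-miR396b, so none is given. The interaction, the phosphorus effect at 90d minus that at 30d, was 0.65 (SE 0.88, adjusted p = 0.844, edgeR) for aqc-miR396a and 0.85 (SE 0.85, adjusted p = 0.748, edgeR) for aqc-miR396b. Without both 30d replicates C, the interaction was 0.11 for aqc-miR396a and 0.10 for aqc-miR396b, and without 30d -P replicate B it was 1.23 and 1.43. Library totals alone gave 1.32 and 1.49, and limma on log2(TPM + 1) gave 1.57 and 1.66. The sign held in all 24 alternative settings for both, and the lowest adjusted p among them was 0.531 for aqc-miR396a and 0.395 for aqc-miR396b. The phosphorus effect at 90d was not shown to differ from that at 30d.

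With phosphate, the pair was lower at 90d than at 30d on the TPM scale, in a comparison that shares the 90d +P libraries with the phosphorus comparison at 90d. The mean TPM was 2.83-fold lower for aqc-miR396a and 2.38-fold lower for aqc-miR396b in 90d +P, with no overlap of the libraries listed above. TPM ranges did not overlap downward for 3 of 7 members (aqc-miR396a, aqc-miR396b and aqc-miR477e), beside 21.2% of all miRNAs. After TMM scaling this held for 1 member, aqc-miR396a, beside 8.03% of all. The log2 fold change was -0.75 (SE 0.63, adjusted p = 0.433, edgeR) for aqc-miR396a and -0.53 (SE 0.60, adjusted p = 0.573, edgeR) for aqc-miR396b. Library totals alone gave -1.50 for aqc-miR396a and -1.25 for aqc-miR396b, while totals without aqc-miR166e gave -0.64 and -0.46. Library totals alone moved the median of all miRNAs by -0.75 here, from 0.055 with TMM factors to -0.70. Between 90d -P and 30d -P, the ranges of both miRNAs overlapped and the fitted direction changed in 6 of 25 alternative settings for aqc-miR396a and 4 of 25 for aqc-miR396b.

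aqc-miR319, the TCP-directed member, was lower at 90d than in most 30d libraries, under either supply. It had 162, 314 and 170 TPM in 90d -P, against 850, 704 and 201 TPM in 30d -P libraries. In 90d +P it had 263, 154 and 255 TPM, against 1022, 936 and 241 TPM in 30d +P libraries. In each supply, replicates A and B at 30d exceeded every 90d library, and replicate C at 30d lay among the 90d values, so the ranges overlapped. The log2 fold change was -1.22 (SE 0.75, adjusted p = 0.587, edgeR) under -P and -0.75 (SE 0.74, adjusted p = 0.514, edgeR) under +P supply. Without both 30d replicates C these were -2.02 and -1.39, with adjusted p of 0.160 and 0.150.

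Averaged over both supplies, aqc-miR319 had a time effect of -0.98 (SE 0.53, adjusted p = 0.205, edgeR), with the same sign in all 24 alternative settings. It reached an adjusted p of 0.0391 with DESeq2 on 12 libraries (-1.26), in a fit where 36 of all miRNAs passed. Without both 30d replicates C, it reached -1.70 with an adjusted p of 0.0262, in a fit where 43 of all miRNAs passed, against 0 with all libraries. These libraries were left out after their values had been seen, and whether they or the others reflect 30d leaves was not tested. For phosphorus, the ranges of aqc-miR319 overlapped at both times and the fitted direction changed in 2 of 25 alternative settings at 90d and 14 of 25 at 30d. Within the 30d pairs of libraries that share a letter, its TPM was lower under -P in 3 of 3, as it was for aqc-miR477e and for 24.8% of all miRNAs tested. On the TMM scale this held in 2 of 3 pairs for aqc-miR319 and in 1 of 3 for aqc-miR477e. With the replicate letter as a block, the edgeR adjusted p at 30d was 0.988 for each of these miRNAs.

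The miR398 forms, the copper-responsive members, varied most between replicates. aqc-miR398a had 183, 30.4 and 126 TPM in 90d -P, and 296, 1562 and 52.9 TPM in 90d +P libraries. At 30d it had 15.0, 87.5 and 224 TPM under -P, and 6.96, 113 and 60.7 TPM under +P supply. The highest library, 90d +P replicate B, was 224 times the lowest, 30d +P replicate A. That lowest value rested on 4 counts, with an exact Clopper-Pearson 95% interval of 1.90 to 17.8 TPM for counting error only.

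In 90d +P against 30d +P, aqc-miR398a had the fold change furthest from 0 of any member. The fitted difference was 3.90 on the log2 scale (SE 1.44), with an unadjusted p of 0.0175 and an edgeR adjusted p of 0.136, and its mean TPM was 10.6-fold higher in 90d +P libraries. The ranges overlapped, as 90d +P replicate C (52.9 TPM) lay below 2 of the 3 libraries of 30d +P plants. Without 90d +P replicate B the value was 2.58, and without 30d +P replicate B it was 4.64. The adjusted p was 0.0458 with the newer edgeR method (4.05). DESeq2 gave 0.0189 when fitted to 12 libraries (3.77) and 0.0462 when fitted to the 6 of this comparison (3.74), and over all 25 alternative settings it ranged from 0.0189 to 0.295.

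In 90d -P against 90d +P, aqc-miR398a had a log2 fold change of -2.75 (SE 1.37, adjusted p = 0.488, edgeR), and of -1.29 without 90d +P replicate B. In 30d -P against 30d +P it was 1.10 (SE 1.31, adjusted p = 0.986, edgeR), and 0.030 without 30d -P replicate C. The interaction was -3.85 (SE 1.88, adjusted p = 0.620, edgeR), and -2.39 without 90d +P replicate B. It was -4.55 when 90d +P replicate C was left out. Averaged over both supplies, the time effect was 1.97 (SE 0.94, adjusted p = 0.164, edgeR). Between 90d -P and 30d -P, no direction is given for aqc-miR398a, since it changed in 9 of 25 alternative settings.

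aqc-miR398b had 2626, 1641 and 5373 TPM in 90d -P, and 513, 21580 and 1165 TPM in 90d +P libraries. At 30d it had 3723, 8502 and 39337 TPM under -P, and 11138, 6082 and 1368 TPM under +P supply. Outside 30d -P replicate C and 90d +P replicate B, the other 10 libraries lay between 513 and 11138 TPM. Ranges overlapped in all 4 comparisons of pairs of groups.

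Which of these libraries was in the fit set the direction for aqc-miR398b. The log2 fold change was -1.55 (SE 1.19, adjusted p = 0.658, edgeR) in 90d -P against 90d +P, and 1.68 without 90d +P replicate B. In 90d +P against 30d +P it was 1.19 (SE 1.18, adjusted p = 0.514, edgeR), and -2.33 without that library. In 30d -P against 30d +P it was 2.07 (SE 1.21, adjusted p = 0.962, edgeR), 0.39 without 30d -P replicate C, and -0.16 without both 30d replicates C. Leaving out 30d +P replicate A brought it to 2.87.

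In 90d -P against 30d -P, aqc-miR398b was at -2.43 (SE 1.23, adjusted p = 0.519, edgeR), and at -1.02 without 30d -P replicate C. When replicate C of 90d -P was left out it was at -3.19. The interaction was -3.62 (SE 1.70, adjusted p = 0.620, edgeR), 0.071 without 90d +P replicate B, and 1.39 without both of the highest libraries. It was -4.53 when 30d +P replicate A was left out. A single library thus decided the direction of the phosphorus effect at 90d, of the time effect under +P and of the interaction for this miRNA.

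**Figure D3:**
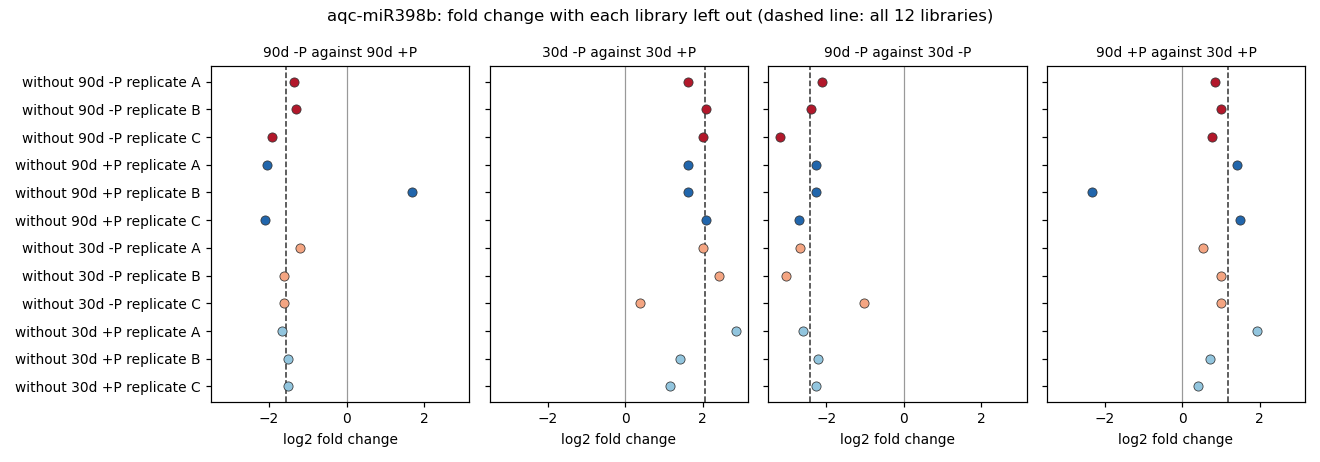
log2 fold change of aqc-miR398b in the 4 comparisons of pairs of groups when each library in turn is left out of the edgeR fit. The dashed line is the value with all 12 libraries and the grey line is 0. Leaving out 90d +P replicate B moves 90d -P against 90d +P to 1.68 and 90d +P against 30d +P to -2.33, across 0 in both.

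The a and b forms of miR396 kept a narrow ratio and those of miR398 a wide one. Such a ratio within a library does not depend on its scaling. These ratios were computed after the values had been seen and are given as a description. aqc-miR396b exceeded aqc-miR396a by 3.54 to 8.42 times over the 12 libraries. aqc-miR398b exceeded aqc-miR398a by 1.73 to 54.0 times in the 6 libraries of 90d (median 18.2) and by 22.6 to 1599 times in the 6 libraries of 30d (median 137), and these ranges overlapped. The 30d maximum came from 30d +P replicate A, where the a form had 4 counts. After group means were taken off, the forms of miR396 deviated together across the 12 libraries (Pearson r = 0.876) more closely than those of miR398 (r = 0.552), a description in which both forms share each library's depth and scaling. No sequences were at hand, so reads that fit both forms of a family could not be counted apart, and the split between a and b is uncertain.

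**Figure D4:**
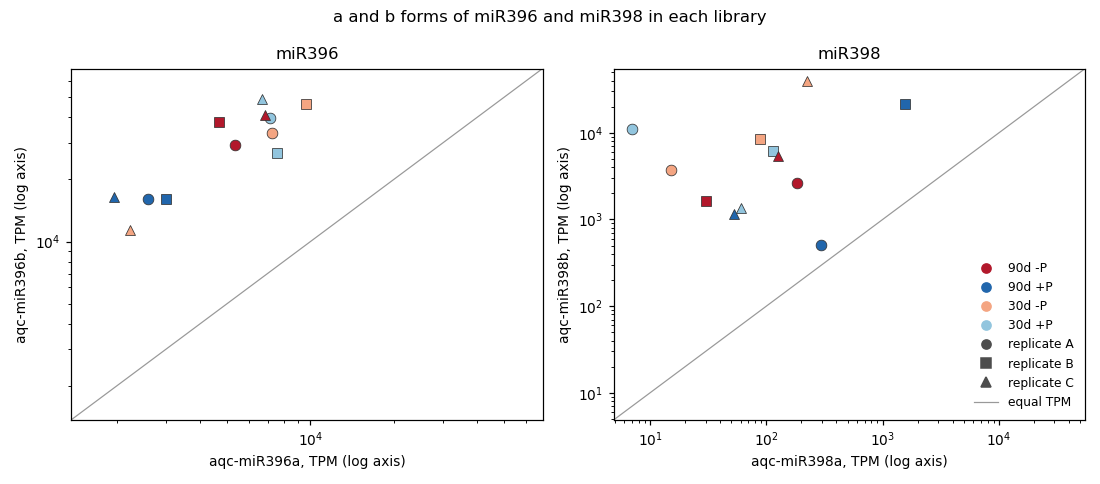
TPM of the b form against the a form of miR396 (left) and miR398 (right) in each of 12 libraries, both axes logarithmic, with colour for the group and shape for the replicate. The line marks equal TPM. For miR396 the points keep a distance of 3.54 to 8.42 times from the line, and for miR398 of 1.73 to 1599 times.

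aqc-miR395b, the sulfate-related member, was scarce and uneven. It had 25.6, 75.9 and 22.5 TPM in 90d -P, against 11.6, 33.9 and 2.20 TPM in 90d +P libraries. At 30d it had 80.6, 11.7 and 62.7 TPM under -P, against 27.9, 239 and 33.4 TPM under +P supply. The lowest value rested on 2 counts (95% interval 0.267 to 7.96 TPM) and the highest, 30d +P replicate B, on 91 counts in the shallowest library. Ranges overlapped in each comparison of pairs of groups, so the levels did not separate deficient from supplied leaves.

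The log2 fold change of aqc-miR395b was 1.12 (SE 1.11, adjusted p = 0.662, edgeR) in 90d -P against 90d +P, and 0.26 without 90d -P replicate B. It was 1.81 when 90d +P replicate B was left out. In 90d +P against 30d +P it was -1.98 (SE 1.14, adjusted p = 0.260, edgeR), and -0.44 without 30d +P replicate B. Leaving out 90d +P replicate B brought it to -2.70. In 30d -P against 30d +P it was -0.94 (SE 1.10, adjusted p = 0.986, edgeR), and 0.86 without 30d +P replicate B. With the replicate letter as a block, the value at 30d was 0.015 (adjusted p = 0.988, edgeR). The interaction was 2.07 (SE 1.57, adjusted p = 0.713, edgeR), and 0.024 without 30d +P replicate B. Between 90d -P and 30d -P the fitted direction changed in 21 of 25 alternative settings, so none is given.

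aqc-miR477e, for which no role is given here because its targets differ between plant species, was lower at 90d than in 5 of the 6 libraries of 30d on the TPM scale. It had 15.2, 22.0 and 21.5 TPM in 90d -P, against 65.6, 74.4 and 0 TPM in 30d -P libraries. In 90d +P it had 27.5, 32.2 and 7.71 TPM, against 73.1, 78.9 and 42.3 TPM in 30d +P libraries. The 0 in 30d -P replicate C allows up to 4.27 TPM (3 counts), while replicates A and B of that group pooled held 92 counts, or 70.8 TPM. TPM did not overlap between 90d +P and 30d +P, but TMM-scaled values did.

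The log2 fold change of aqc-miR477e was -1.12 (SE 1.16, adjusted p = 0.691, edgeR) in 90d -P against 30d -P, and -1.82 without 30d -P replicate C. It was -0.46 when 30d -P replicate B was left out. In 90d +P against 30d +P it was -0.72 (SE 1.15, adjusted p = 0.699, edgeR). Averaged over both supplies it was -0.92 (SE 0.81, adjusted p = 0.460, edgeR), and -1.44 without both 30d replicates C (adjusted p = 0.109, edgeR). On log2(TPM + 1), where the library at 0 counts most, limma gave 0.25 for 90d -P against 30d -P libraries.

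aqc-miR535, the SPL-directed member, was seen as 1 count in 30d +P replicate B, or 2.63 TPM with an exact 95% interval of 0.0666 to 14.6 TPM. The other 11 libraries had 0 counts of 11146316, which allows up to 0.269 TPM (3 counts). It was not tested, and no difference was detectable at this depth.

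Within the comparisons of pairs of groups, TPM of no member separated 30d -P from 30d +P (4.38% of all miRNAs did) or 90d -P from 30d -P (21.9% of all). The spread between replicates differed among members. The biological coefficient of variation was 60.2% for aqc-miR396b and 60.5% for aqc-miR396a, the 8th and 9th lowest of 137. It was 67.2% for aqc-miR319, 90.6% for aqc-miR477e, 91.3% for aqc-miR395b, 95.9% for aqc-miR398b and 104% for aqc-miR398a, the 112th. The miR396 pair thus varied least between replicates among the tested members, and the miR398 pair most.

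Against the other miRNAs of the same roles, the lists were short. Of the families listed for leaf growth and form, only members were in the table (aqc-miR319, aqc-miR396a and aqc-miR396b), and 0 of 3 passed an adjusted p in any of the 7 comparisons. In 90d -P against 90d +P the log2 fold change was 0.77 for aqc-miR396a and 0.75 for aqc-miR396b, and -0.44 for aqc-miR319 (adjusted p = 0.858, edgeR, 0.12 without 90d -P replicate C), beside a median of -0.44 over all 137 miRNAs tested. Of the nutrient families, aqc-miR395b, aqc-miR398a, aqc-miR398b and aqc-miR399 were in the table. Of these 4, only aqc-miR399, the phosphate starvation miRNA, passed an adjusted p, for 90d -P against 90d +P and for phosphorus averaged, in both cases higher under -P supply. Their median was -0.21 in 90d -P against 90d +P, which does not turn on the size of the change of aqc-miR399, at 0 counts in all 90d +P libraries. Of the SPL-directed families, aqc-miR156b and aqc-miR535 were present and 0 of 2 passed the filter on low counts. In the remaining list, aqc-miR477e was the only row.

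The miRNA whose levels followed each member most closely was found by the Spearman correlation of TMM-scaled log2 CPM over the 12 libraries, as a description, since all points share their library's depth and scaling. These were novel_39 for aqc-miR396b (0.923), novel_185 for aqc-miR398a (0.881), aqc-miR171a for aqc-miR396a (0.874) and aqc-miR172a for aqc-miR477e (0.858). For aqc-miR398b it was novel_27 (0.853), for aqc-miR319 novel_119 (0.825), and for aqc-miR395b novel_187 (0.559). The forms of a family were not each other's closest match.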

How the data were processed

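Small RNA from 12 leaf libraries was sequenced, and groups and replicate letters came from the sample labels. The authors removed adapter, low-quality and other noncoding reads, predicted miRNAs with miREvo and mirdeep2, and deposited 1 table of raw counts for each miRNA. Bowtie and DESeq2 are named in the submitters' processing notes, without versions. For the genome build and the miRBase release, the sources used here give nothing. The deposited TPM values equal counts scaled to 1000000 per library. The deposited expected counts, the authors' group means, were used in no test. Counts include PCR copies, so intervals and limits cover counting error only.

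Testing used edgeR 4.0.16, by its quasi-likelihood F test (older method, the default) in R 4.3.3, with TMM factors, filterByExpr (minimum count 10) and 1 model of 4 groups without covariates. Two-sided p-values were adjusted by Benjamini-Hochberg over the 137 miRNAs tested. The SE was the absolute log2 fold change divided by the square root of F. The fit was tested on simulated data. Alternatives were RLE factors, library totals with and without aqc-miR166e, no or a stricter filter (10 counts in 6 libraries), the newer edgeR method, DESeq2 1.42.0, limma 3.58.1, a replicate block and each library left out. Leaving out both 30d replicates C, or both of the highest aqc-miR398b libraries, was added after seeing the data. With 3 against 3 libraries, an exact permutation test cannot go below 0.1, so none was used.

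Members, defined by a family number above that of miR172, and the gene lists were chosen with earlier results of these data known. All members are named, other known miRNAs only where a result turned on one, and the closest match of each tested member. The pairing by replicate letter was checked by correlating deviations from group means across miRNAs. At 30d, -P and +P libraries with the same letter gave r of 0.455 (A), 0.236 (B) and 0.211 (C). Different letters gave -0.281 to 0.0170. At 90d the letter A also gave 0.248. A pairing of the 30d samples by letter was thus allowed for in the replicate block, and the main tests did not use it. The paper states a completely randomized design. In the other comparisons at least 1 pair was under 0.1. Nothing in the sources used here says what a letter shares.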

Additional observations from a re-analysis of the deposited data

How the results depend on the processing

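Of the members' fold changes reported above, 27 are counted here under the alternatives, which gave 667 values. Left out were, among others, aqc-miR395b in 90d -P against 30d -P, which turned in 21 of 25 settings. At 30d, aqc-miR319 (14 of 25) and aqc-miR396a (11 of 25) were also left out. The share that turned is thus lower here than over all fold changes of the members. Of the 667 values, 646 kept their direction and their side of the threshold, and 16 turned the direction. The other 5 passed the threshold where the reported value did not (aqc-miR398a and aqc-miR319, above). aqc-miR398b in 90d -P against 90d +P was 0.28 and 0.27 with limma on log2(TPM + 1) and log2(TPM + 10), 1.68 without both of the highest libraries, and -2.10 to 1.68 with 1 library left out. Its change in 90d +P against 30d +P was -0.95, -0.94, -2.33 and -2.33 to 1.94 in those settings. Its interaction was 1.39 without both of the highest libraries and -4.53 to 0.071 with 1 left out, and its 30d value was -0.16 without both 30d replicates C. aqc-miR395b at 30d was -1.17 to 0.86 with 1 library left out and 0.015 with the replicate block, the fit for the pairing by letter. aqc-miR477e in 90d -P against 30d -P was 0.25 with limma on log2(TPM + 1). aqc-miR319 in 90d -P against 90d +P was 0.0093 with no filter and -0.94 to 0.12 with 1 library left out. Beyond the libraries named, the cause was not tested.

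The count of members called was 0 in all 7 comparisons, and the replicate block for the pairing left it at 0 in each, as did leaving out any 1 library. It became 1 for 90d +P against 30d +P with the newer edgeR method (19 of all miRNAs called). DESeq2 on 12 (31 of all) or 6 libraries (at most 31 of all) also gave 1 there. For time averaged it became 1 with DESeq2 on 12 libraries (36 of all) and without both 30d replicates C (43 of all). Members past the unadjusted rule moved more. For 90d -P against 90d +P there were 2 (library totals, limma) or 1 (no or stricter filter, newer edgeR, DESeq2) in place of 0. For 90d -P against 30d -P there were 2 (DESeq2 on 12) or 1 (no filter, DESeq2 on 6, either pair of libraries left out) in place of 0. For 90d +P against 30d +P there were 5 (library totals), 3 (DESeq2 on 12) or 2 (limma) in place of 1. Library totals moved the median of all miRNAs by -0.75 in this comparison, from 0.055 to -0.70. The interaction had 2 (newer edgeR) or 1 (library totals, either filter, DESeq2, limma) in place of 0. Time averaged had 3 (without both 30d replicates C), 2 (no filter, DESeq2, highest libraries left out) or 1 (the others, the replicate block included) in place of 0. Over all miRNAs, DESeq2 on 12 libraries gave 20, 22, 54, 19 and 54 in these comparisons, in that order. The newer edgeR method gave 21, 14, 41, 13 and 43. Counts over all miRNAs with library totals and with most limma fits are not given here. With 1 library left out, the count ranged from 0 to 1 for 90d -P against 90d +P and for phosphorus averaged, from 0 to 2 for the interaction and for 90d -P against 30d -P, and from 0 to 3 for time averaged.

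Over all 137 miRNAs, called counts ranged from 0 (stricter filter, replicate block) to 9 (newer edgeR), against 3, for 90d -P against 90d +P. They reached 8 for 90d -P against 30d -P (DESeq2 on 6), 31 for 90d +P against 30d +P (DESeq2 on 12) and 43 for time averaged (without both 30d replicates C), against 0 each. For phosphorus averaged they ranged from 4 (stricter filter) to 9 (DESeq2), against 6. Leaving out 1 library gave 0 to 5, 0 to 7 and 0 to 24 for 90d -P against 90d +P, phosphorus averaged and time averaged. By the unadjusted rule, the highest counts were 12 against 5 for 30d -P against 30d +P, 23 against 11 for 90d -P against 90d +P, 27 against 11 for 90d -P against 30d -P, 54 against 36 for 90d +P against 30d +P, 19 against 7 for the interaction and 64 against 41 for time averaged, and the lowest was 7 against 13 for phosphorus averaged. Without aqc-miR166e in the total, the members' summed share was 11.1% ± 1.80 in 90d -P and 8.56% ± 5.46 in 90d +P. It was 10.7% ± 3.21 in 30d -P and 9.12% ± 1.71 in 30d +P (SD, n = 3 each).

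aqc-miR535, aqc-miR395b, aqc-miR477e and aqc-miR398a had libraries with under 10 counts, where counting error is wide. For aqc-miR398a, aqc-miR395b and aqc-miR477e, replicates of a group also lay apart beyond their counting intervals.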
